A study of Mus musculus with 6 samples.

Results

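The BCL2 family genes described here are 10 genes chosen by name: the pro-survival genes Bcl2, Bcl2l1, Mcl1, Bcl2a1b and Bcl2a1d, the effector genes Bax and Bak1, and the BH3-only genes Bcl2l11, Bad and Bmf. They were taken by symbol from the 27179 gene numbers of the count table, and all 10 passed the filter on low counts. The RNA came from spleen cells of gBT-I transgenic mice, whose CD8+ T cells all bear a receptor for a herpes simplex virus peptide, gB498-505. That peptide, with lipopolysaccharide (LPS), activated the cells in culture. They were given IL-2 on days 2, 3, 4 and 5, and were harvested on day 6. Libraries were made with a TruSeq RNA kit. Control cultures (3 libraries) had no butyrate, and butyrate cultures (3 libraries) had it from day 3. Butyrate is a short-chain fatty acid made by gut bacteria and an inhibitor of histone deacetylases. No source used here gives its dose, the age of the mice or any sorting of the cells. All cultures share the transgene and the same activation, so the control is an activated and not a resting culture. Library totals were 5383380 to 6244350 counts.

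Proteins of the BCL2 family decide whether the outer mitochondrial membrane is permeabilised, the step that releases cytochrome c and commits a cell to apoptosis. BAX and BAK form the pores, the pro-survival proteins hold them in check, and BH3-only proteins bind and neutralise the pro-survival proteins or activate BAX and BAK directly. In T cells, BCL2 is sustained by IL-7 and IL-2 family cytokines, BCL-XL (encoded by Bcl2l1) and A1 (encoded by the Bcl2a1 genes) are induced by activation, and BIM (encoded by Bcl2l11) drives much of the death that ends a response. Several of these proteins are also controlled after translation, which RNA counts do not show.

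Butyrate was followed by a rise of 4 members and a fall of 1. The rises were those of the A1 genes Bcl2a1d (fold 4.16) and Bcl2a1b (fold 2.19), of Bmf (fold 1.7) and of Bcl2l1 (fold 1.42). Bak1 fell, to 0.769 of its control level. Mcl1 and Bax were close to their control levels, and Bcl2, Bcl2l11 and Bad had fitted values above control that did not pass the test. A gene is said to rise or fall where edgeR's adjusted p over all tested genes was under 0.05. By that rule 45.9% of the 11740 tested genes were called, 23.5% higher and 22.5% lower, so 5 of 10 members is a share near that of genes at large. The groups of libraries did not overlap for 7 of the members and for 57.1% of all tested genes. The median size of the log2 fold change was 0.34 over the members and 0.33 over all tested genes, and the signed medians were 0.26 and 0.003.

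The A1 genes carried the largest changes, and their sequences are shown because the genes are almost identical. Bcl2a1b lies at chr9:89199273-89207838 on the plus strand and Bcl2a1d at chr9:88723288-88731850 on the minus strand (GRCm38.p6, the assembly behind mm10). Their GENCODE M21 transcripts of 817 and 863 bases aligned over 817 bases with 7 mismatches (99.1% identity). The open reading frames have 519 bases each, with 6 mismatches and no gap. The first 60 coding bases of each hold 2 of the 6 mismatches and read as follows, with the differing bases in capitals.
Bcl2a1b: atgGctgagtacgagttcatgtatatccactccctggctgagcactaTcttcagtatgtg
Bcl2a1d: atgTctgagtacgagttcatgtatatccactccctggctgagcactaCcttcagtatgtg

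The stretches upstream of the annotated starts are nearly the same as well. Whether they bear on the rise of either row was not tested. From the RefSeq windows of GRCm38.p6, 200 bases could be aligned upstream of both starts, with 2 mismatches (99% identity) and a block of 6 bases found in Bcl2a1b alone. Capitals mark these differences. The stretch lies at chr9:89199023-89199228 for Bcl2a1b and at chr9:88731851-88732050 for Bcl2a1d, each read 5′ to 3′ on the strand of its gene. Its last base lies 45 bases from the annotated start of Bcl2a1b but 1 base from that of Bcl2a1d, so the offsets differ.
Bcl2a1b: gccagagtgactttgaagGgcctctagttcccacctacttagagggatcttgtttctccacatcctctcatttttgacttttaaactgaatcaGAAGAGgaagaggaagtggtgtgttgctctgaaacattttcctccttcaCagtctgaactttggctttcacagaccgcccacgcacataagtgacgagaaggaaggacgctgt
Bcl2a1d: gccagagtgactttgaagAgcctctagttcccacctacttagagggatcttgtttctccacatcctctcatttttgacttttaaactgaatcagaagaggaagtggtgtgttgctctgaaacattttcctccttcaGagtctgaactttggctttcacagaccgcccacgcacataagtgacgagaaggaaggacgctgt

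The members' promoter windows (250 bases before to 50 after a start, 16 windows for the 10 genes) were searched on both strands for 6 motifs. The AP-1 letters TGANTCA matched in 2 of the 16 windows, those of Bcl2a1b and Bcl2a1d, within the stretches printed above, and in 7.81% of all 32851 windows. The GC box GGGCGG matched in 9 of the 16 and in 35.7% of all. The FOXO letters GTAAACA matched in 1 window of Bcl2l11, the E-box CACGTG in the Bax window, and the NF-kB letters GGANNTTCC in the Bak1 window, against 3.65%, 7.15% and 4.26% of all. The STAT letters TTCNNNGAA matched in 0 of 16 and in 8.3% of all. A match is a description of letters, and nothing was measured here about binding.

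Bcl2a1d went from 4.86, 7.6 and 7.46 CPM in the control libraries (replicates 1 to 3) to 25.5, 29.2 and 28.5 CPM with butyrate, where CPM are read counts scaled to a common library size after TMM normalisation. Every butyrate library stood far above every control library, and the gap was wide against the spread within each group (6.64 ± 1.54 and 27.7 ± 1.96 CPM, SD, n = 3). The log2 fold change was 2.06 (SE 0.174, edgeR adjusted p = 6.55e-05), larger in size than that of 95.1% of tested genes. Bcl2a1b had 17.3, 21.1 and 20.1 CPM in control and 34.6, 44.2 and 49.3 CPM with butyrate. Its groups did not overlap either, and it rose by 1.13 on the log2 scale (SE 0.152, edgeR adjusted p = 0.000506). The other A1 rows were almost silent: Bcl2a1a held at most 4 counts and Bcl2a1c at most 2 counts in a library.

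The counts of Bcl2a1b were 96, 114 and 124 in control and 187, 257 and 267 with butyrate, and those of Bcl2a1d were 27, 41 and 46 against 138, 170 and 154. The share of the pair's counts assigned to Bcl2a1d was thus 25.2% ± 2.79 in control and 39.6% ± 2.95 with butyrate (SD, n = 3). This difference gave an exact two-sided permutation p of 0.1, the smallest that 3 against 3 libraries allow. How the split was made matters, because not every read can tell the genes apart. Of all windows of 50 bases, 42.4% of those in the Bcl2a1b transcript and 20.5% of those in the Bcl2a1d transcript occur in no other A1 transcript. With windows of 100 bases these shares are 68.9% and 45.3%. No source used here gives the read length or the treatment of reads that match several genes, and the split between the paralogs is uncertain. With all A1 rows summed to 1 row, levels were 22.1 to 28.7 CPM in control and 60.3 to 78.7 CPM with butyrate, and the summed row rose by 1.43 on the log2 scale (edgeR adjusted p = 0.000116). The rise therefore did not rest on the split, although its size per gene does. Of the exon bases of Bcl2a1b, 401 of 817 are also part of Gm29094, an overlapping gene model on the same strand.

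**Figure D1:**
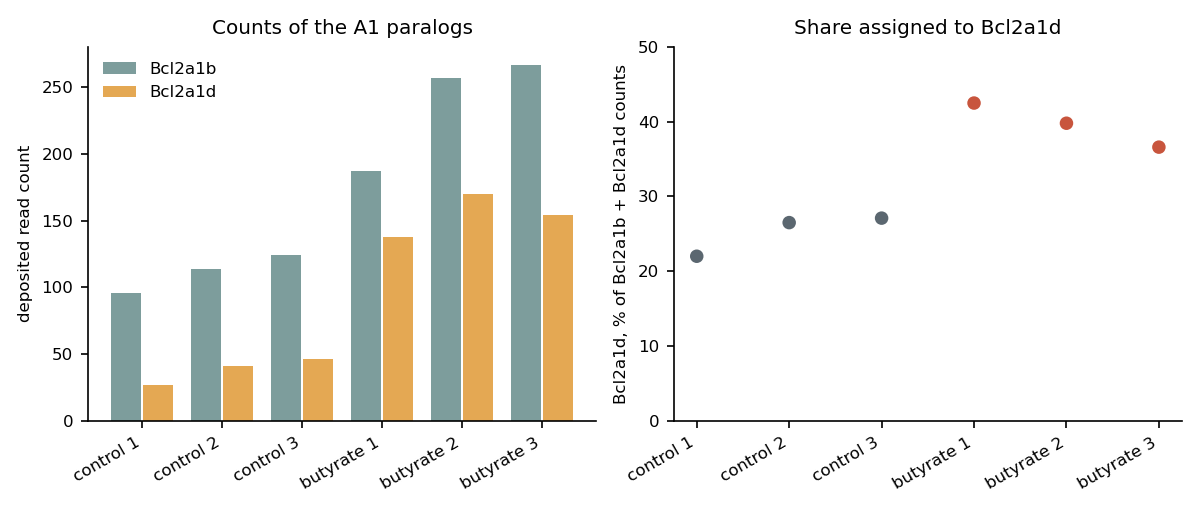
Left: deposited read counts of Bcl2a1b and Bcl2a1d (bars) in each of the 6 libraries. Right: the percent of the pair's counts assigned to Bcl2a1d, 1 point per library; the control libraries sit between 22% and 27.1% and the butyrate libraries between 36.6% and 42.5%.

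A1 is also expressed by myeloid cells, and some markers of other spleen cells moved in the same direction while others were not called. Their part in the A1 result was not tested. Of all tested genes 23.5% rose and 22.5% fell, which are the shares to set beside the counts below. Of 14 macrophage and dendritic cell markers, 7 passed the filter and 4 of these rose. Their summed level was 43.4 to 95.1 CPM in control and 150 to 160 CPM with butyrate. The largest rise was that of Itgam, which T cells can also express, from 4.08 to 44.1 CPM. Lyz2 (means 22.5 and 25 CPM), Itgax (10.4 and 11) and Cd68 (4.94 and 7.98) were tested and not called. Siglech was at 0 counts in all libraries, and the macrophage and dendritic cell genes Adgre1, Clec9a, Flt3 and Fcgr1 had at most 3 counts over the 3 libraries of a group. Of 14 granulocyte and mast cell markers, 5 passed and 3 rose, with sums of 11.1 to 25.6 and 27.3 to 61.4 CPM, while Camp was at 0 and S100a8 and Mpo had at most 2 counts in a group. Cpa3 (means 7.87 and 9.08 CPM) and Fcer1a (3.05 and 3.44) were tested and not called. B and plasma cell markers summed to 28.2 to 31 and 42.1 to 49.6 CPM (2 of 4 tested rose, Pax5 at 0), NK cell markers to 8.28 to 12.7 and 21.5 to 26.8 CPM (3 of 4 rose), and erythroid and platelet markers to 1.11 to 4.06 and 6.88 to 40.3 CPM (1 of 1 rose). The B and plasma cell markers Cd79b (means 13.4 and 11.9 CPM) and Jchain (10.1 and 9.27) were tested and not called. Among the NK cell markers, Fcgr3 (means 2.08 and 3.33 CPM) was tested and not called. Ncr1, Klra4 and Klra8 had at most 2 counts in a group. The erythroid gene Hbb-bs held 19 CPM in butyrate replicate 3, against 3.51 and 0.344 in butyrate replicates 1 and 2. The CD4 T cell list rose in 4 of 5, from 272 to 370 CPM to 606 to 615 CPM. Most of that sum came from Ctla4 (means 233 and 478 CPM) and Zbtb7b (69.8 and 117), while Cd4 went from 0.608 to 4.63 CPM. Cd40lg (means 7.27 and 4.85 CPM) was tested and not called. Foxp3 was below the filter, with 4 counts over the control libraries and 5 over the butyrate libraries. The list for the labelled CD8 T cells holds 8 genes, of which Cd8a and Cd8b1 set CD8 T cells apart from other T cells. Cd8a was at 385 to 505 CPM in control and 379 to 489 CPM with butyrate, and Cd8b1 at 188 to 311 and 229 to 287 CPM, neither called. The whole list, mostly genes of T cells in general, summed to 4240 to 4780 and 3890 to 4980 CPM, with 0 risen and 2 fallen (Cd3e and Lck). In such mixed RNA, a change in the number of cells of a type and a change in RNA per cell cannot be told apart.

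Bcl2l1 encodes BCL-XL, the pro-survival protein induced by T cell activation and costimulation (chr2:152758732-152833803). It had 84.4, 113 and 91 CPM in control and 114, 144 and 151 CPM with butyrate. The groups were parted by a small margin, since the highest control library lay next to the lowest butyrate library. The log2 fold change was 0.5 (SE 0.139, edgeR adjusted p = 0.0165). The call was lost without control replicate 1 (log2 fold change 0.43, adjusted p = 0.0566), control replicate 3 (0.47, 0.0545), butyrate replicate 2 (0.46, 0.058) or butyrate replicate 3 (0.42, 0.0546).

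Bcl2, the founding pro-survival gene (chr1:106538176-106714290), had 536, 536 and 574 CPM in control and 607, 667 and 651 CPM with butyrate. All butyrate libraries were above all control libraries. The difference was small, with a log2 fold change of 0.23 (95% interval 0.04 to 0.41), and the adjusted p of 0.0501 just missed the threshold. With the replicate number as a block it was called (log2 fold change 0.22, edgeR adjusted p = 0.0382). It was also called with RLE (adjusted p = 0.0466), upper quartile (0.0142) and total-count scaling (0.0386), the stricter filter (0.0316), DESeq2 (0.0387) and limma voom (0.0448), and without butyrate replicate 1 (0.0372). The log2 fold change was 0.19 to 0.31 over all alternatives, with an adjusted p of up to 0.139. Of the exon bases of Bcl2, 558 of 9157 overlap D630008O14Rik, an antisense gene model.

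Mcl1 encodes a short-lived pro-survival protein that activated T cells depend on (chr3:95656944-95663179). Its levels were 480, 433 and 443 CPM in control and 429, 463 and 439 CPM with butyrate. The groups overlapped, and the log2 fold change of -0.03 had a 95% interval of -0.21 to 0.16 (edgeR adjusted p = 0.813). Its sign turned between scalings, with 0.06 under upper quartile scaling. Only 4.17% of tested genes had a smaller change, while its mean level exceeded that of 97.6% of them.

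Among the effectors, Bak1 fell and Bax did not pass the test. Bak1, whose product sits in the outer mitochondrial membrane (chr17:27019812-27028627), had 171, 168 and 192 CPM in control and 155, 125 and 129 CPM with butyrate. The groups did not overlap, and the level fell by 0.38 on the log2 scale (SE 0.104, edgeR adjusted p = 0.0163). The call was lost without control replicate 3 (log2 fold change -0.31, adjusted p = 0.0588), butyrate replicate 2 (-0.32, 0.0612) or butyrate replicate 3 (-0.34, 0.0501). Of its 2407 exon bases, 614 are shared with Ggnbp1 on the opposite strand, which held only 3 to 12 counts in a library.

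Bax, whose product is cytosolic until activated (chr7:45461695-45466903), had 63, 72.1 and 81.4 CPM in control and 79.3, 68.8 and 76.1 CPM with butyrate. The ranges overlapped, and the log2 fold change of 0.05 had a 95% interval of -0.2 to 0.3 (adjusted p = 0.743). Of its 1576 exon bases, 192 also belong to Gm45808, a gene model on the same strand. The ratio of Bax to Bak1, both per kilobase of exon, was 0.563, 0.656 and 0.648 in control and 0.783, 0.839 and 0.903 with butyrate, and was higher in each butyrate library than in any control library. Bak1 stood above Bax in every library by this length. With the longest transcript as the length, Bax (62.5 to 72.1 CPM per kb) stood above Bak1 (52.4 to 64.8) in each butyrate library, so which of the effector genes leads depends on the gene model.

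Of the BH3-only members, Bmf rose, while Bcl2l11 and Bad did not pass the test. Bmf, whose product is held by a dynein light chain until released (chr2:118528757-118549686), had 22.7, 19.5 and 33.1 CPM in control and 46.6, 40.4 and 41.9 CPM with butyrate. The control libraries varied more than the butyrate libraries and stayed below them. The log2 fold change was 0.77 (SE 0.18, edgeR adjusted p = 0.00778) and was called in all 15 alternatives, at 0.62 to 1.03.

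Bcl2l11, the gene for BIM (chr2:128126038-128162547), had 118, 107 and 108 CPM in control and 132, 162 and 113 CPM with butyrate. Butyrate replicate 3 lay within the control range. The log2 fold change of 0.29 did not pass (95% interval 0 to 0.58, edgeR adjusted p = 0.0892). Without that library it was 0.41 (adjusted p = 0.0219), and without butyrate replicate 2 it was 0.14 (0.307). Upper quartile scaling also gave a call (0.37, 0.0378).

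Bad, whose product is kept inactive by phosphorylation through survival kinases (chr19:6941861-6951905), had 20.9, 23.7 and 21.4 CPM in control and 25.9, 26 and 24.6 CPM with butyrate. The groups were apart but close, and the log2 fold change of 0.21 did not pass (95% interval -0.03 to 0.46, adjusted p = 0.14). Bad shares 524 of 2558 exon bases with Gpr137 on the opposite strand. Gpr137 itself held 96 to 128 counts in a library, close to the 116 to 151 of Bad, and no source used here says how shared bases were counted.

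**Figure D2:**
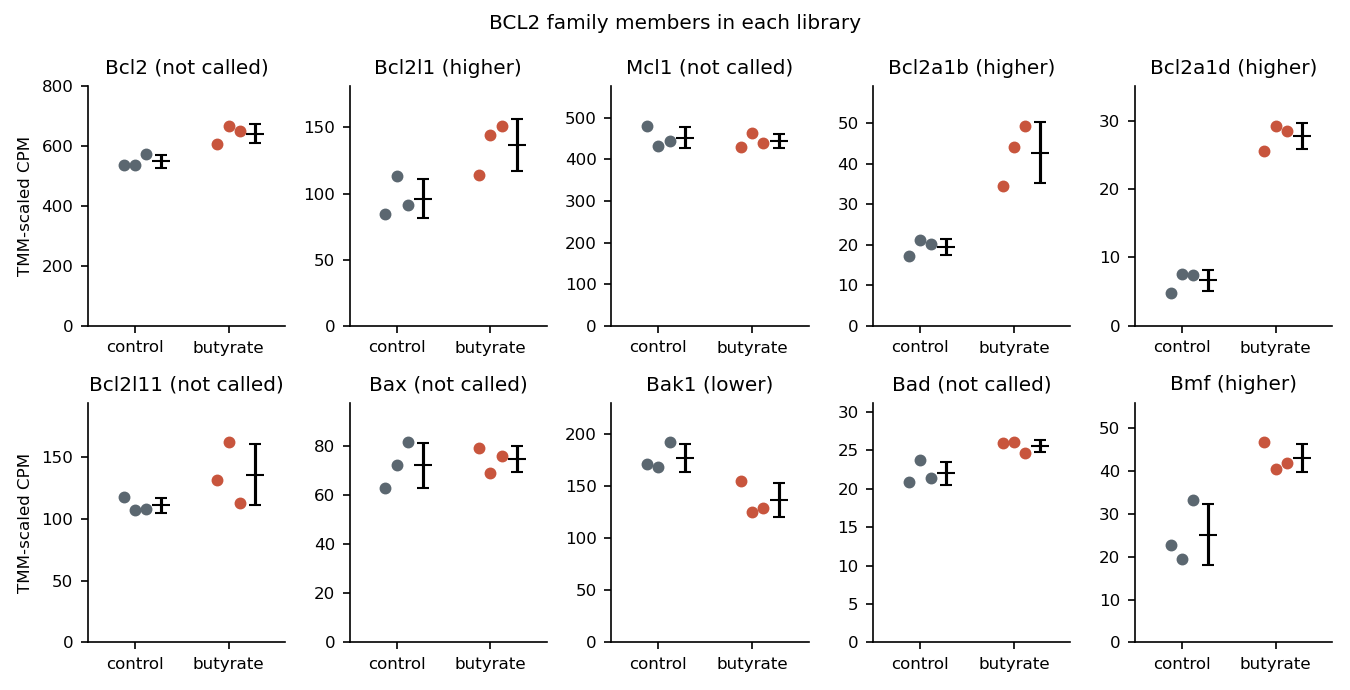
TMM-scaled CPM of each member (y axes start at 0), 1 point per library, with the mean and SD of 3 libraries as a black bar and the edgeR call in each title. The butyrate points lie clear of the control points for Bcl2a1d and Bcl2a1b, and overlap them for Mcl1, Bax and Bcl2l11.

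Levels were compared between genes per kilobase of the union of their exons. Mcl1 led in every library, at 127 to 141 CPM per kb in control and 126 to 136 with butyrate. Bmf was last in every library, at 3.71 to 6.3 and 7.69 to 8.87 CPM per kb. Both places also held when the longest transcript was taken as the length. Below Mcl1 in control came Bak1 (69.8 to 79.8), Bcl2 (58.5 to 62.7) and Bax (40 to 51.7), whose ranges did not overlap. Bcl2a1b (21.2 to 25.9) and Bcl2l1 (18.4 to 24.7) followed with overlapping ranges, then Bcl2l11 (13.3 to 14.7). Bad (8.16 to 9.28) and Bcl2a1d (5.63 to 8.81) overlapped. Much of this order between the ends depends on the gene model. With the longest transcript as the length, the control range of Bak1 (70.4 to 80.5) overlapped those of Bcl2 (74.5 to 79.9) and Bax (57.3 to 74). Bcl2 stood clear above Bax in control by either length. By the longest transcript, Bcl2l1 (32.9 to 44.1) stood clear above Bcl2a1b (21.2 to 25.9), and Bcl2l11 (21.3 to 23.4) overlapped Bcl2a1b. Bad (13.6 to 15.5) then stood clear above Bcl2a1d.

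With butyrate Bcl2 (66.3 to 72.8 CPM per kb) stood above Bak1 (52 to 64.3) in every library. The ratio of Bcl2 to Bak1 was 0.816 in control and 1.25 with butyrate (means of 3 libraries). With the longest transcript as the length the control ratio was 1.03, so which of these genes led in control depends on the gene model, while the higher ratio with butyrate does not. Bcl2a1d went from near the foot of the order to 29.6 to 33.9 CPM per kb, overlapping Bcl2l1 (24.8 to 32.9). Bcl2a1b reached 42.3 to 60.4, overlapping Bax (43.6 to 50.3) and Bak1. With the longest transcript as the length, Bcl2l1 (44.4 to 58.8) stood clear above Bcl2a1d and Bax clear above Bcl2a1b in the butyrate libraries.

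**Figure D3:**
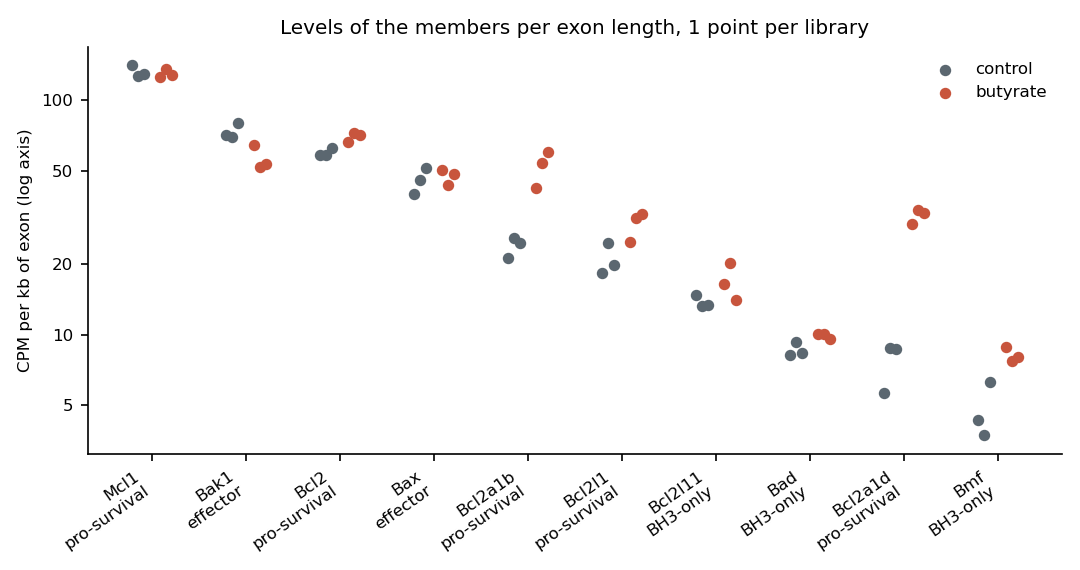
Level of each member per kilobase of exon (log axis) in control and butyrate libraries, 1 point per library, ordered by the control mean. Mcl1 stays at the top and Bmf at the foot, and Bcl2a1d shows the widest gap between groups.

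Summed by role, the pro-survival members held 244 to 245 CPM per kb in the control libraries and 289, 328 and 326 with butyrate. The BH3-only members held 26.3 to 28.1 and 31.7 to 38.1, and the effectors 111 to 131 and 95.6 to 115. The pro-survival sum was thus 8.98, 9.29 and 8.74 times the BH3-only sum in control and 8.16, 8.61 and 10.3 times with butyrate. The ranges of this ratio overlapped, since both sums stood higher. With the longest transcript as the length the ratio was 6.55, 6.84 and 6.55 in control and 6.15, 6.43 and 7.8 with butyrate. Its size thus depends on the gene model, and the ranges overlapped there too. The share of Mcl1 in the summed level of the 10 members was 36.7%, 32.8% and 32% in control and 28.6%, 29.4% and 28% with butyrate, while that of Bcl2a1b was 5.53% to 6.7% and 9.65% to 13.1%, and that of Bcl2a1d 1.47% to 2.28% and 6.74% to 7.34%. These sums are descriptions of RNA, with no test.

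The BCL2 family has further genes, of which 20 were matched. Of these, 13 passed the filter, 5 rose and 4 fell (69.2% called, against 45.9% of all genes). The BH3-only genes moved in both directions. Bid, whose product is cleaved by caspase-8 to activate BAX and BAK, went from 40, 39.7 and 40.7 CPM to 58.3, 67.2 and 73.5 CPM, a rise of 0.73 on the log2 scale (edgeR adjusted p = 0.000671). Pmaip1, which encodes NOXA, a selective antagonist of MCL1 and A1, went from 66.4, 102 and 110 CPM to 124, 251 and 237 CPM (log2 fold change 1.14, adjusted p = 0.00821). In contrast Bbc3, the gene for PUMA, a BH3-only target of p53, fell from 41.6, 43.8 and 44.3 CPM to 29.2, 25.4 and 29.4 CPM (log2 fold change -0.63, adjusted p = 0.00118). For all 3 genes no butyrate library lay within the control range, and the calls were kept in 15 of 15 alternatives.

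Bik, another BH3-only gene, rose from a low level (1.6 ± 0.887 to 4.34 ± 0.519 CPM, adjusted p = 0.0136), a call lost without control replicate 2 (adjusted p = 0.0522). The mitophagy receptor gene Bnip3 rose (107 ± 14.9 to 158 ± 44.1 CPM, adjusted p = 0.0394) with groups that overlapped, and its relative Bnip3l fell (169 ± 11.1 to 123 ± 5.74 CPM, adjusted p = 0.00218). The call of Bnip3 was lost with robust edgeR (0.0586) and without control replicate 1 (0.0888), control replicate 2 (0.129), butyrate replicate 2 (0.0831) or butyrate replicate 3 (0.123, with a log2 fold change of 0.33 against 0.56). Bcl2l12 and Bclaf1 fell by 0.36 and 0.21 on the log2 scale, near the threshold (adjusted p = 0.0418 and 0.0437). Both calls were lost in 9 of 15 alternatives, DESeq2 among them (0.193 and 0.0632). Leaving out any 1 library ended that of Bcl2l12 (0.0726 to 0.119), and leaving out any but butyrate replicate 3 ended that of Bclaf1 (0.0921 to 0.14). Bcl2l15 had 2 control counts and 69 butyrate counts in all, which put the ratio at 35.5 (exact 95% interval for counting error, 9.46 to 299). Both control counts came from control replicate 2, so without that library no fold can be measured.

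Bcl2l2, the gene for the pro-survival protein BCL-W, was at 44.1 ± 4.78 and 33 ± 8.17 CPM and was not called (log2 fold change -0.42, edgeR adjusted p = 0.0812), but it was with the replicate block (-0.43, 0.00961), with no filter (0.0483) and without butyrate replicate 3 (-0.57, 0.0421). Bcl2l13, Bnip1 and Bnip2 were not called. The third effector gene, Bok, was below the filter, at a mean of 0.232 and 0.41 CPM, and the BH3-only gene Hrk and the pro-survival gene Bcl2l10 had 0 counts in all libraries.

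**Figure D4:**
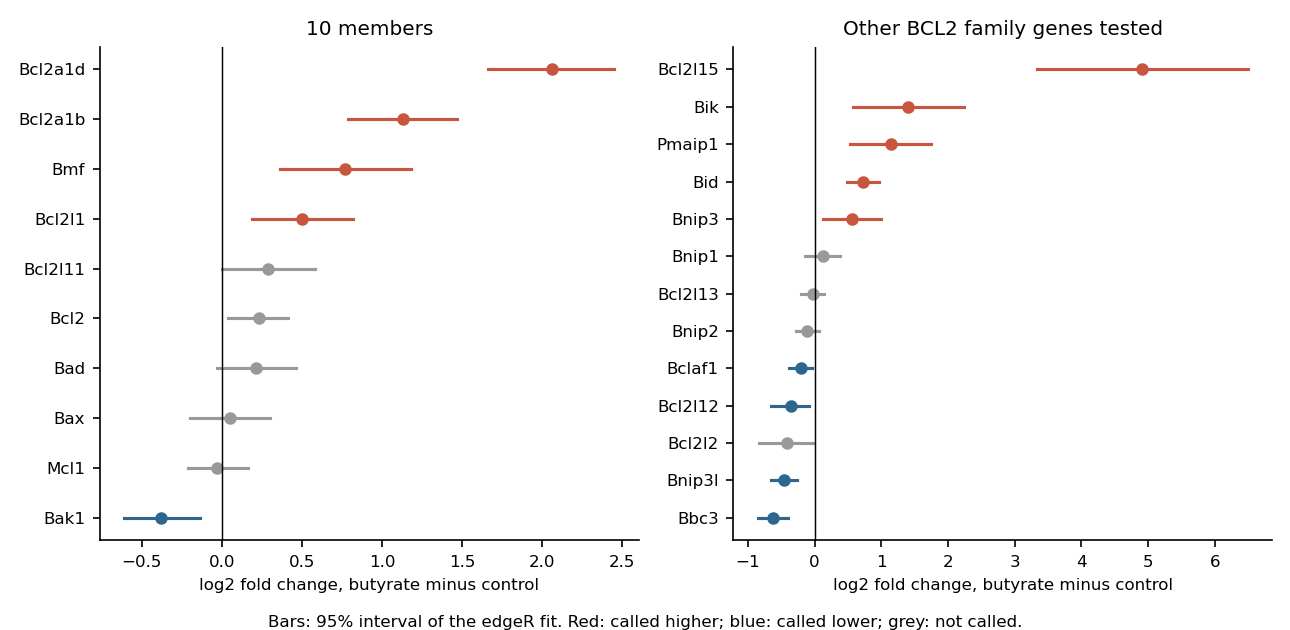
Log2 fold changes (points) with their 95% intervals (bars) for the 10 members (left) and for the 13 other family genes that passed the filter (right). The x axes differ; Bcl2a1d at 2.06 leads the members, and the wide interval of Bcl2l15 comes from 2 control counts.

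Of 19 tested genes for binding partners and turnover of BCL2 proteins, 4 rose and 2 fell (31.6% called, against 45.9% of all tested genes). Ier3, an immediate early gene linked to MCL1, rose by 1.46 on the log2 scale, from 38.7 ± 4.85 to 106 ± 15.9 CPM (edgeR adjusted p = 8.96e-05). Usp9x, which encodes a deubiquitinase that stabilises MCL1, fell from 102 ± 6.51 to 59.8 ± 4.67 CPM, and Gsk3b, the kinase gene whose product marks MCL1 for degradation, from 116 ± 1.37 to 69.7 ± 5.22 CPM. Mapk8ip1, a scaffold gene of the JNK pathway, had 2 control counts and 60 butyrate counts in all (ratio 30.9, exact 95% interval 8.18 to 261 for counting error). Dynll2, which encodes the dynein light chain that holds BMF, rose by a log2 fold change of 0.5 (adjusted p = 0.000699), while Dynll1, the partner of BIM, was not called; this pair was chosen after its values were seen.

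The survival kinases and cytokine receptors upstream of the family moved in both directions, with 6 of 19 higher and 8 lower (73.7% called, against 45.9% of all tested genes). Il2ra, which encodes the alpha chain of the IL-2 receptor, rose by a log2 fold change of 1.54 and the kinase gene Pim1 by 0.98 (225 ± 18 to 442 ± 24.4 CPM). Pim2, whose product can phosphorylate BAD, fell by 0.94 on the log2 scale and Pik3r1, a regulatory subunit of PI3 kinase, by 0.59. Of 27 tested regulators of BCL2 family transcription, 9 rose and 7 fell (59.3% called). Myc rose by 1.63 and Myb by 1.67 on the log2 scale, while Runx1 and the NF-kB subunit gene Relb fell by 1.11 and 0.73. All of these calls were kept in every one of the 15 alternatives.

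Of 17 tested genes of the mitochondrial death machinery, 3 rose and 5 fell (47.1% called, against 45.9% of all tested genes). Xiap, which encodes an inhibitor of caspases, fell from 201 ± 4.76 to 102 ± 3.19 CPM (edgeR adjusted p = 4.52e-05), and Birc3, a relative that acts on TNF receptor signalling, from 53.9 ± 2.22 to 28.2 ± 1.31 CPM. Diablo, whose product antagonises XIAP, rose by a log2 fold change of 0.3, a call lost without control replicate 1 (adjusted p = 0.0645), control replicate 3 (0.0658) or butyrate replicate 2 (0.0679).

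**Figure D5:**
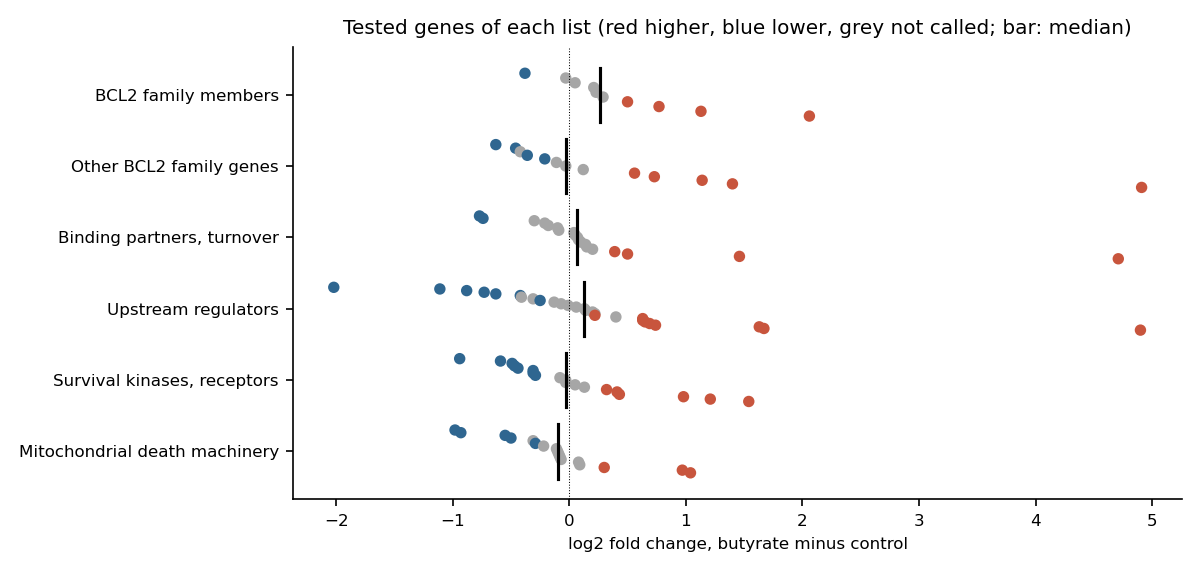
Log2 fold change of every tested gene in 6 lists (points; red called higher, blue called lower, grey not called; black bar, median of the list). The medians lie between -0.1 and 0.26, and each list holds genes called in both directions.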

How the data were processed

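The authors deposited raw read counts per gene number, 1 column per library. The tools named in the submitters' processing notes are TopHat, featureCounts, Subread, CASAVA, Picard and edgeR, with the build mm10 and no versions or roles. Columns were matched to samples by the label naming them. Gene numbers were named from RefSeq (GRCm38.p6); 25275 of 27179 had a symbol. Library totals were 5383380 to 6244350 counts, so 3 counts stood at 0.487 to 0.556 CPM. This floor covers counting error only. Whether replicates were separate mice or cultures is not in the labels, and p-values then measure only the spread between these libraries, which may be technical.

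Groups were compared in edgeR 4.0.16 under R 4.3.3 with the quasi-likelihood test (glmQLFit, glmQLFTest; TMM, filterByExpr, Benjamini-Hochberg adjustment over 11740 genes). The SE was taken from the log2 fold change and its F statistic (their ratio, with F under a square root), and 95% intervals use the fit's degrees of freedom. The procedure was tested on simulated data. Lengths are GENCODE M21 exon unions, since the RefSeq table gives no transcript lengths. Sequences were aligned with Biopython 1.88.

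Same-numbered control and butyrate libraries deviated together across genes (correlations 0.36, 0.2 and 0.35, against -0.3 to -0.07 for other pairs). The blocked value is therefore given where it changed a call of a gene followed over the alternatives. Deviations from the mean cancel within a group, so the values of other pairs are tied to those of same-numbered pairs and are no separate contrast. The source of this pairing is not in the labels.

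The 10 members and the 13 gene lists (185 of 187 entries matched) were chosen with earlier results of these data known. Named are all members, any tested gene of the list of other family genes, and from each further list up to 2 called genes per direction with the smallest p. Some further markers of the cell type lists are named as well. Alternatives were 3 other scalings, 2 other filters, DESeq2 (1.42.0), limma voom (limma 3.58.1), robust edgeR, the block, each library left out, and summed A1 rows. The longest transcript as length was added after the data were seen. A gene that this rule names is not reported here.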

Additional observations from a re-analysis of the deposited data

How the results depend on the processing

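Over 15 alternatives the number of all genes called was 4509 to 6315, with 6315 under the replicate block, and 3 to 6 members were called higher (4 in the reported fit, 5 with the block). The number of members called lower was 1 in every alternative except those without control replicate 3, butyrate replicate 2 or butyrate replicate 3, where it was 0 (range 0 to 1); these are the omissions that ended the call of Bak1. Calls of Bcl2a1b, Bcl2a1d and Bmf were kept in every alternative run for them, and Mcl1, Bax and Bad were called in none. The median log2 fold change of all genes was 0.003 in the reported fit and at most 0.085 under another scaling (upper quartile). Among genes outside the members that were followed over the alternatives, the replicate block changed the call of Bcl2l2 only. Dynll1, Dynll2 and the further markers of the cell type lists were not followed. The ratio of Bcl2 to Bak1 in control, 0.816 per exon length, turned to 1.03 with the longest transcript as length (1.25 and 1.58 with butyrate). In limits of depth, Bcl2l14, Bcl2l15 and Mapk8ip1 rest on 0 to 2 control counts. Bik, Bcl2l15 and Mapk8ip1 gave no value under the stricter filter, which tested fewer genes. The NK marker Klre1 lost its call without control replicate 1 (edgeR adjusted p = 0.063), control replicate 3 (0.0686) or butyrate replicate 2 (0.0857).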

Other observations

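Bcl2l14, a BCL2 family gene that was below the filter, had 0 counts over the control libraries and 30 over the butyrate libraries, at 2.59, 0.516 and 2.4 CPM. Set against a limit of 3 counts over the control group, the butyrate counts stood 10.3-fold higher. That value leaves out the counting error of the butyrate counts, and butyrate replicate 2 was itself at the level of 3 counts. Bcl2l14 was chosen after its values were seen and was not tested.

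With the other BH3-only genes (Bid, Bik, Pmaip1 and Bbc3) and Bcl2l2 added to the sums by role, the BH3-only genes held 82.9, 96.2 and 102 CPM per kb in control and 114, 163 and 156 with butyrate. Most of this difference came from Pmaip1, with means of 33.9 and 74.7 CPM per kb. Bid and Bik rose by less, and Bbc3 fell (20.3 to 13.2). The pro-survival sum was then 3.07, 2.63 and 2.5 times the BH3-only sum in control and 2.6, 2.04 and 2.15 times with butyrate. The groups overlapped through butyrate replicate 1, while within same-numbered libraries the ratio was lower with butyrate in 3 of 3 pairs. Over the members alone it was lower in 2 of 3 pairs. Both ratios compare RNA per exon length and carry no test.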
